A study of Mus musculus with 4 samples.

Results

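The interferon-response genes described here are 33 genes chosen by name, as known interferon-stimulated genes, from the 32932 genes listed in the deposited tables. They comprise 4 signal and transcription factors, 3 genes of viral RNA sensing, 2 genes of the ISG15 system, 3 IFIT genes, 9 other antiviral effectors, 4 membrane proteins, 6 interferon-induced GTPases and 2 immunoproteasome subunits. Of the 33 genes, 32 were listed at all 4 stages, and Mx1 was listed at E15.5 only. The data were single-cell RNA-seq of mammary tissue dissected from female wild-type C57B6 mice (substrain C57 B6/N in the study's methods) at embryonic days E13.5, E14.5 and E15.5 and on the day of birth (P0), with pooled animals and 1 library per stage. Live cells were sorted by EpCAM, an epithelial surface protein, and cells positive for CD45 (leukocytes), CD31 (endothelium) or Ter119 (red cells) were gated out before capture with the 10x Chromium 3′ v3.1 kit. No mutation, transgene or treatment distinguished the groups. P0 glands were digested with a different enzyme mix from the embryonic rudiments and had an added red cell lysis step.

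Interferons are secreted proteins that cells release on sensing viral nucleic acid or other danger signals. Type I and type III interferons signal through JAK kinases to a complex that includes STAT2 and IRF9 and binds the interferon-stimulated response element in the promoters of its targets. Type II interferon acts through a receptor of its own and is the main inducer of the guanylate-binding proteins and the immunity-related GTPases. Some of the genes, among them Irf1 and the Ifitm genes, are also expressed in many tissues without infection.

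The promoters of 6 members described in detail below, chosen because they carry the motif, are shown first, since it is a sequence feature that the choice of the 33 genes did not use. RefSeq promoter windows (GRCm38.p6, from 250 bases upstream to 50 bases downstream of the start site) were matched for 27 of the 33 genes. The core of the interferon-stimulated response element, 2 copies of GAAA with any 2 bases between them (sought on both strands), occurred in windows of 15 of the 27 genes (55.6%) and of 1079 of all 27025 genes with a window (3.99%). The stretches of 100 bases below lie upstream of the annotated start sites and are written 5′ to 3′ on the strand of the gene, with each match to the response element core in capitals, so that a match on the other strand reads as 2 copies of TTTC. Isg15 is at chr4:156200836-156200935 on the reverse strand, Ifit1 at chr19:34640749-34640848 on the forward strand, Gbp2 at chr3:142620559-142620658 on the forward strand, Gbp3 at chr3:142559944-142560043 on the forward strand, Igtp at chr11:58199456-58199555 on the forward strand and Irgm1 at chr11:48871421-48871520 on the reverse strand.
Isg15: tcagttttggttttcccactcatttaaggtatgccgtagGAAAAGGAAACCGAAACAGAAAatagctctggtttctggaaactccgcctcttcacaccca
Ifit1: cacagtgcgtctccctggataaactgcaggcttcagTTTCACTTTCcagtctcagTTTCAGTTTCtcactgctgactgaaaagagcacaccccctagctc
Gbp2: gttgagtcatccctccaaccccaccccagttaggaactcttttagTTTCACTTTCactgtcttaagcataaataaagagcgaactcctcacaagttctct
Gbp3: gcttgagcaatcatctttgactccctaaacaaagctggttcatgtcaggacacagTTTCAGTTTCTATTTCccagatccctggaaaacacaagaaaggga
Igtp: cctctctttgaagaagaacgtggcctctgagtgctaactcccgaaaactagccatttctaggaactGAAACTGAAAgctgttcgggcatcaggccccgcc
Irgm1: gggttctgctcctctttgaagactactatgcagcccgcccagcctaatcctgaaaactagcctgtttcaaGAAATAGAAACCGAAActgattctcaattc
The matches of Gbp2, Gbp3, Igtp and Irgm1 ended between 14 and 49 bases upstream of the start site, and those of Isg15 and Ifit1 56 and 75 bases upstream. Irf7, Oasl2, Ifit2, Ifitm1 and Xaf1 were among the 12 matched genes without the motif in their windows.

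Each count is a unique molecular identifier (UMI), a tag that marks 1 captured transcript. Cells were kept from 5000 UMIs upward, if mitochondrial genes gave no more than 6% of them, and were called epithelial or mesenchymal by the larger of their summed UMIs for Epcam, Krt8, Krt18, Krt5 and Krt14 and for Col1a1, Col1a2 and Col3a1. This gave 98 epithelial and 135 mesenchymal cells at E13.5, 45 and 31 cells at E14.5, 532 and 283 cells at E15.5, and 230 and 273 cells at P0, with group median depths from 16438 to 26725 UMIs per cell in the embryo and of 9973 and 8743 UMIs at P0. A further 3 kept cells had equal sums and entered no group, and no barcode was shared between libraries among kept cells. The epithelial group was not restricted to mammary cells: the study removed contaminating skin cells, and no such step was made here. At E15.5, 269 of its 532 cells had 5 or more UMIs of Krt1, Krt10, Krtdap and Sbsn, here called suprabasal skin genes. The study also places Krtdap in luminal-like mammary cells at E15.5, so these counts do not separate skin from mammary cells. The defining leukocyte marker Ptprc was at 0 UMIs in all embryonic groups. At P0 the leukocyte list (8 genes) summed to 283 UMIs in mesenchyme, and 181 of these came from 1 cell. The level of a gene was its summed UMIs divided by all UMIs of the group, scaled to a common library total (CPM), and a range in parentheses is the exact 95% interval, which covers counting error only. UMIs of 1 cell are not independent, so the number of UMIs in the highest cell is given where a few cells carried a level. No test was made, because the cells of a library are not replicates and no stage had a second library.

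Of the 23 members compared at both E15.5 and P0, 14 had the higher level in epithelium at E15.5 and in mesenchyme at P0. Among these 14, the P0 intervals of Ifih1 and Irf9 included no difference. The share of all genes that changed sides in this way was not counted, so the 14 cannot be set against a background. At E15.5, 15 of the 28 genes with at least 30 UMIs in the comparison were at least 2-fold higher in epithelium than in mesenchyme, where 16.4% of all 12408 genes compared were. A further 9 genes (Stat2, Irf1, Trim25, Ifit2, Ifi35, Ifi27, Ifitm1, Ifitm2 and Iigp1) were at least 2-fold lower in epithelium, against a background of 21.7%. At P0 no member was at least 2-fold higher in epithelium, where 24.0% of all genes were, and 16 of the 23 compared were at least 2-fold lower, where 18.2% of all genes were. The median log2 ratio of epithelium over mesenchyme was 1.37 over the members at E15.5 and -1.77 at P0, and over all genes it was -0.09 and 0.31. A gene can reach 30 UMIs through the tissue where it is high, so these counts do not cover the remaining members, which had too few UMIs.

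At the earlier stages fewer members could be compared. At E13.5, 3 of 10 (Ddx58, Ifitm3 and Gbp2) were at least 2-fold higher in epithelium, against 9.58% of all genes, and 4 (Irf1, Ifi27, Ifitm2 and Bst2) were lower, against 20.2%. At E14.5, 6 of 9 (Ddx58, Isg15, Ifit1, Ifitm3, Gbp2 and Gbp3) were higher, against 13.6%, and Ifitm2 was lower, against 16.1%. The median log2 ratio was -0.45 over the members at E13.5 (all genes -0.16) and 2.72 at E14.5 (all genes 0.04). At E14.5 Isg15 (53 against 0 UMIs), Ifit1 (102 against 2), Gbp2 (59 against 1) and Gbp3 (30 against 0) reached the UMI minimum through epithelium alone. Ifi27 (1 against 28), Xaf1 (0 against 23) and Ifit2 (2 against 15) lay on the mesenchymal side but had too few UMIs to be compared. The E14.5 count and median thus depend on which genes reached the minimum.

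**Figure D1:**
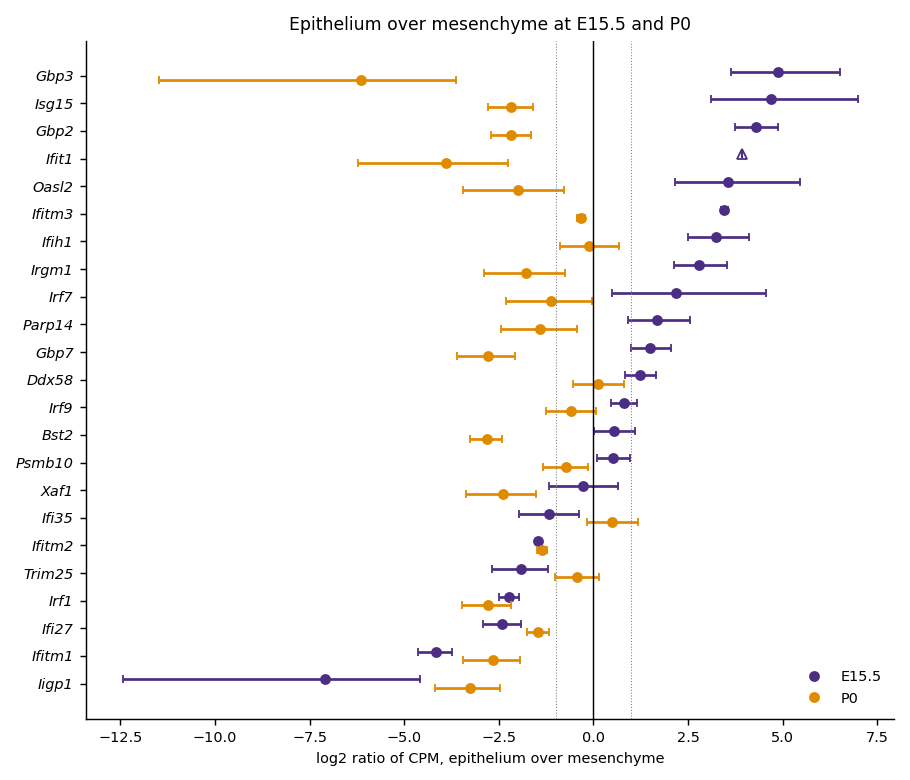
Log2 ratio of CPM, epithelium over mesenchyme, for the 23 interferon-response genes with at least 30 UMIs at both E15.5 (purple) and P0 (orange), with exact 95% intervals. Dotted lines mark 2-fold, and the open triangle is a lower bound set at 3 UMIs. Of the 23 genes, 14 lie above 0 at E15.5 and below 0 at P0, while 7 (Irf1, Trim25, Ifi27, Xaf1, Ifitm1, Ifitm2 and Iigp1) lie below 0 at both stages. The share of all genes with either pattern was not counted.

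Among the signal and transcription factors, Irf1, an early activator of interferon targets that interferon gamma induces, was at least 2-fold lower in epithelium at E13.5, E15.5 and P0. In epithelium Irf1 was at 8.33 CPM at E13.5, 31.4 CPM at E14.5, 11.4 CPM at E15.5 and 9.56 CPM at P0. In mesenchyme it was at 30.3 CPM at E13.5, 39.4 CPM at E14.5, 53.6 CPM at E15.5 and 66.6 CPM at P0. The mesenchymal level was 3.64-fold (2.13 to 6.58) higher at E13.5, 4.70-fold (3.90 to 5.68) higher at E15.5 and 6.96-fold (4.56 to 11.1) higher at P0, whereas at E14.5 the interval of the ratio, 1.25-fold (0.766 to 2.04), included no difference.

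Irf7, the factor that amplifies type I interferon production, was low throughout and lay on opposite sides at E15.5 and P0. At E15.5 it had 27 UMIs in epithelium and 3 in mesenchyme, a ratio of 4.57-fold (1.41 to 23.5). At P0 the mesenchymal level was 2.18-fold (1.02 to 4.95) higher, with 23 against 11 UMIs. Stat2, a subunit of the factor that binds the response element, was 3.86-fold (2.73 to 5.52) higher in mesenchyme at E15.5, at 13.8 against 3.57 CPM. Irf9, its DNA-binding partner, stayed within 2-fold between tissues at all 4 stages, at 11.3 to 21.8 CPM, and shares exons with Rnf31, so its counts are less certain.

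The viral RNA sensors Ifih1 (MDA5) and Ddx58 (RIG-I) were epithelial genes at E15.5. Ifih1 was at 2.94 CPM at E13.5, 11 CPM at E14.5, 19.6 CPM at E15.5 and 11 CPM at P0 in epithelium. Mesenchyme held it at 1.66 CPM at E13.5, 1.19 CPM at E14.5, 2.07 CPM at E15.5 and 12.4 CPM at P0. Its epithelial level was therefore 9.48-fold (5.65 to 17.2) that of mesenchyme at E15.5, and at P0 the ratio was 0.928-fold (0.543 to 1.59). Ddx58 was 2.80-fold (1.53 to 5.38) higher in epithelium at E13.5, 2.27-fold (1.05 to 5.41) at E14.5 and 2.35-fold (1.77 to 3.15) at E15.5, and at P0 the ratio was 1.09-fold (0.683 to 1.74). Trim25, the ubiquitin ligase that acts on RIG-I, went the other way at E15.5, where it was 3.78-fold (2.28 to 6.40) higher in mesenchyme, at 6.61 against 1.75 CPM.

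Isg15, a ubiquitin-like protein joined to other proteins in the antiviral state, was almost absent at E13.5 and lay on opposite sides at E15.5 and P0. In epithelium it was at 0.980 CPM at E13.5, 41.6 CPM at E14.5, 10.6 CPM at E15.5 and 11.9 CPM at P0. In mesenchyme it was at 0.415 CPM at E13.5, 0 UMIs at E14.5, 0.413 CPM at E15.5 and 53.8 CPM at P0. The epithelial level was at least 11.6-fold the mesenchymal one at E14.5, with 3 UMIs taken in place of 0, and 25.7-fold (8.64 to 126) at E15.5, where mesenchyme had 3 UMIs. At P0 the mesenchymal level was 4.54-fold (3.05 to 6.94) higher, at 135 against 31 UMIs. Of the mesenchymal UMIs, 68 remained without the cells with blood or endothelial markers. These UMIs were concentrated in few cells: 1 cell held 27 of 53 at E14.5, 1 held 30 of 152 in E15.5 epithelium, and 1 held 46 of 135 in P0 mesenchyme. Usp18, which removes ISG15 and dampens receptor signaling, did not reach 9 UMIs in any group.

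The IFIT genes encode proteins that bind foreign RNA, and Ifit1 and Ifit2 had opposite patterns in the embryo. Ifit1 was at 6.37 CPM at E13.5, 80.1 CPM at E14.5, 6.23 CPM at E15.5 and 1.15 CPM at P0 in epithelium. It was at 0 UMIs at E13.5, 2.39 CPM at E14.5, 0 UMIs at E15.5 and 17.1 CPM at P0 in mesenchyme. Its epithelial level was at least 15.1-fold higher at E15.5, and at P0 the mesenchymal level was 14.9-fold (4.78 to 75.3) higher on 3 epithelial UMIs. At E14.5, 55 of the 102 epithelial UMIs came from 1 cell.

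Ifit2, by contrast, was spread over many mesenchymal cells. It had 67 UMIs in 49 of 283 mesenchymal cells at E15.5, with at most 3 in a cell, and 1 UMI in epithelium, a ratio of 132-fold (22.9 to 5287). Its mesenchymal levels were 8.72 CPM at E13.5, 17.9 CPM at E14.5 and 5.58 CPM at P0, while epithelium held no more than 3 UMIs at any stage. Ifit3 reached 22 UMIs in P0 mesenchyme and at most 7 in any other group, and its near-identical copy Ifit3b makes these counts uncertain.

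**Figure D2:**
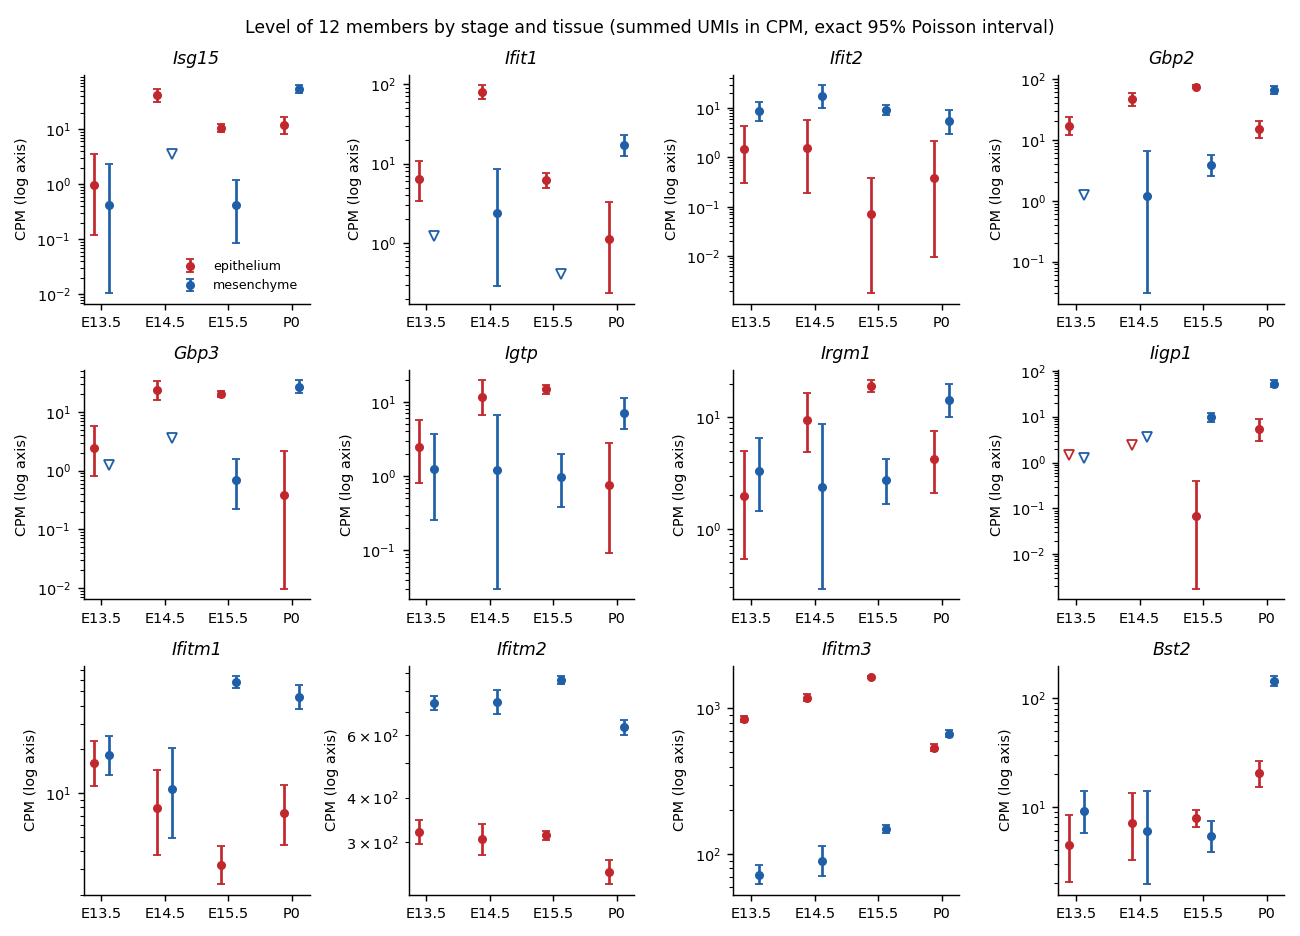
CPM (log axis) of 12 interferon-response genes by stage in epithelium (red) and mesenchyme (blue), with exact 95% Poisson intervals. Open triangles mark groups with 0 UMIs, drawn at the CPM of 3 UMIs. Isg15, Ifit1, Gbp2, Gbp3, Igtp and Irgm1 lie higher in epithelium at E15.5 and higher in mesenchyme at P0, and Ifitm2 and Ifit2 lie higher in mesenchyme at all 4 stages.

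The other antiviral effectors differed among themselves. Rsad2 (viperin, an enzyme that makes a chain-terminating nucleotide) had 67 UMIs in 36 epithelial cells at E15.5 and 1 UMI in mesenchyme. In P0 mesenchyme its 18 UMIs came from 4 cells, and 1 UMI was left without cells with blood or endothelial markers. Oasl2, of the oligoadenylate synthetase-like family, was 11.8-fold (4.46 to 44.2) higher in epithelium at E15.5 and 4.02-fold (1.71 to 10.9) higher in mesenchyme at P0. Parp14, an ADP-ribosyltransferase, was 3.21-fold (1.88 to 5.82) higher in epithelium at E15.5 and 2.65-fold (1.36 to 5.48) higher in mesenchyme at P0. Rtp4, a chaperone of membrane receptors, was 2.95-fold (1.13 to 9.75) higher in E15.5 epithelium, on 29 against 5 UMIs. Oasl2 and Parp14 thus lay on opposite sides at E15.5 and P0, as Isg15 and Ifit1 did.

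Ifi27, Ifi35 and Xaf1 had no epithelial excess at E15.5. Ifi27, a mitochondrial protein, was at 1.47 CPM at E13.5, 0.785 CPM at E14.5, 3.43 CPM at E15.5 and 53.2 CPM at P0 in epithelium. It was at 11.6 CPM at E13.5, 33.4 CPM at E14.5, 18.2 CPM at E15.5 and 146 CPM at P0 in mesenchyme, and so was lower in epithelium at every stage, by 5.30-fold (3.79 to 7.52) at E15.5 and 2.75-fold (2.25 to 3.36) at P0. Xaf1, a promoter of cell death, was at 2.03 and 2.48 CPM at E15.5 and 5.21-fold (2.85 to 10.3) higher in mesenchyme at P0. In E14.5 mesenchyme, 18 of its 23 UMIs came from 1 cell. Ifi35 was 2.25-fold (1.31 to 3.88) higher in mesenchyme at E15.5, and at P0 the ratio of epithelium over mesenchyme was 1.41-fold (0.894 to 2.25). Ifi44 had at most 2 UMIs in any group. Mx1, a dynamin-like antiviral GTPase that is defective in C57BL/6 mice, had 9 UMIs in epithelium and 2 in mesenchyme at E15.5, the stage at which it was listed.

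The 3 IFITM proteins, which block virus entry at membranes, were divided between the tissues. Ifitm3 was at 849 CPM at E13.5, 1187 CPM at E14.5, 1647 CPM at E15.5 and 539 CPM at P0 in epithelium. It was at 72.7 CPM at E13.5, 90.7 CPM at E14.5, 149.7 CPM at E15.5 and 673 CPM at P0 in mesenchyme. Its epithelial level was 11.7-fold (9.99 to 13.7) the mesenchymal one at E13.5, 13.1-fold (10.4 to 16.7) at E14.5 and 11-fold (10.4 to 11.7) at E15.5, and at P0 the ratio was 0.800-fold (0.745 to 0.859). Ifitm3 was detected in 520 of 532 epithelial cells at E15.5.

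Ifitm2 and Ifitm1 were the mesenchymal genes of the family. Ifitm2 was 2.32-fold (2.12 to 2.54) higher in mesenchyme at E13.5, 2.45-fold (2.15 to 2.79) at E14.5, 2.75-fold (2.65 to 2.86) at E15.5 and 2.57-fold (2.34 to 2.82) at P0. Part of its sequence overlaps the predicted gene Gm45717 on the same strand. Ifitm1 was at 16.2 CPM at E13.5, 7.85 CPM at E14.5, 3.22 CPM at E15.5 and 7.27 CPM at P0 in epithelium. In mesenchyme it was at 18.3 CPM at E13.5, 10.7 CPM at E14.5, 58.0 CPM at E15.5 and 45.9 CPM at P0. The intervals of its ratio included no difference at E13.5 and E14.5, and its level was 18.0-fold (13.3 to 25.0) higher in mesenchyme at E15.5 and 6.31-fold (3.86 to 10.9) at P0. Bst2 (tetherin), which holds budding virus at the cell surface, was at 4.41 CPM at E13.5, 7.07 CPM at E14.5, 7.84 CPM at E15.5 and 20.3 CPM at P0 in epithelium and at 9.13 CPM at E13.5, 5.97 CPM at E14.5, 5.37 CPM at E15.5 and 144 CPM at P0 in mesenchyme, where the P0 level was 7.08-fold (5.30 to 9.64) that of epithelium and was spread over 122 of 273 cells.

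The summed level of the 6 GTPases was 144 CPM in epithelium and 23.1 in mesenchyme at E15.5, and 32.5 and 215 at P0. Gbp2, a guanylate-binding protein that coats vacuoles holding pathogens, was at 17.1 CPM at E13.5, 46.3 CPM at E14.5, 75 CPM at E15.5 and 14.9 CPM at P0 in epithelium. It was at 0 UMIs at E13.5, 1.19 CPM at E14.5, 3.86 CPM at E15.5 and 67.0 CPM at P0 in mesenchyme. Its epithelial level was at least 13.8-fold the mesenchymal one at E13.5, 38.8-fold (6.70 to 1559) at E14.5 and 19.4-fold (13.4 to 29.4) at E15.5, and at P0 the mesenchymal level was 4.49-fold (3.15 to 6.54) higher. At E15.5 the gene was detected in 266 of 532 epithelial cells, and 25 of the 1072 UMIs came from the highest cell. In mesenchyme of the same library it was detected in 7 of 283 cells. With each cell thinned to 5000 UMIs, the shares were 22.4% (18.9 to 26.2) and 1.41% (0.386 to 3.58). At P0 the thinned shares were 3.91% (1.80 to 7.30) in epithelium and 16.5% (12.3 to 21.4) in mesenchyme. Whether the UMIs in E15.5 mesenchyme and P0 epithelium came from the cells themselves or from RNA outside them was not tested. At E14.5, 27 of the 59 epithelial UMIs came from 1 cell.

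Gbp3 and Gbp7 followed Gbp2. Gbp3 was at 2.45 CPM at E13.5, 23.6 CPM at E14.5, 20.1 CPM at E15.5 and 0.382 CPM at P0 in epithelium. It was at 0 UMIs at E13.5, 0 UMIs at E14.5, 0.689 CPM at E15.5 and 27.1 CPM at P0 in mesenchyme, where it was detected in 46 of 273 cells at P0 against 1 of 230 epithelial cells. Its epithelial level was 29.2-fold (12.3 to 90.5) the mesenchymal one at E15.5, and the mesenchymal level was 70.9-fold (12.3 to 2841) the epithelial one at P0. Gbp7 was 2.83-fold (2.00 to 4.12) higher in epithelium at E15.5 and 6.95-fold (4.22 to 12.1) higher in mesenchyme at P0, at 47.9 against 6.88 CPM. With cells thinned to 5000 UMIs its E15.5 ratio came within 2-fold.

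Of the immunity-related GTPases, which attack the vacuoles of intracellular parasites, Igtp and Irgm1 resembled the GBPs and Iigp1 did not. Igtp was 15.2-fold (7.27 to 38.4) higher in epithelium at E15.5, on 210 against 7 UMIs, and had 2 and 18 UMIs at P0. Its exons overlap Irgm2 on the same strand. Exons of Gbp7, Parp14 and Rtp4 also overlap other genes on the same strand (Gm43802, Gm49730 and Gm45338), so their counts are less certain. Irgm1 was 6.88-fold (4.37 to 11.4) higher in epithelium at E15.5 and 3.41-fold (1.70 to 7.43) higher in mesenchyme at P0. Iigp1 had 0 UMIs at E13.5 and E14.5. At E15.5 all 70 of its mesenchymal UMIs came from 2 cells, 42 of them from 1, and epithelium had 1 UMI. At P0 it had 130 UMIs in 38 mesenchymal cells and 14 in 9 epithelial cells, a ratio of 9.68-fold (5.57 to 18.2). All 5 GTPases compared at P0 were therefore at least 2-fold higher in mesenchyme.

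The immunoproteasome subunit Psmb10, which shapes peptides for MHC class I, stayed within 2-fold between tissues at E13.5, E15.5 and P0, at 8.26 to 25.5 CPM. Psmb9 had at most 6 UMIs in any group.

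Within mesenchyme, the members with enough UMIs lay mostly higher at P0 than in the embryo. Compared with E13.5, 18 of the 23 members with enough UMIs were at least 2-fold higher at P0 and none was lower, where 1377 of all 9825 genes (14%) were higher and 34.7% lower. Several of the 18, among them Gbp2, Gbp3, Gbp7, Iigp1 and Ifit1 with 0 UMIs at E13.5, reached the UMI minimum through P0 alone. Such genes could only be called higher, and genes entered the comparison with E15.5 by the same rule. Compared with E15.5, 18 of 25 were higher, against 1474 of all 10935 genes (13%), and Stat2 was lower, against 28.1%. The median log2 ratio was 2.90 over the members and -0.58 over all genes against E13.5, and 2.43 and -0.43 against E15.5. The median of all genes lay more than 0.1 from 0 in most comparisons. As an alternative, every ratio was divided by the median ratio of the genes with at least 100 UMIs in both groups. The members past 2-fold then numbered 24 at E15.5 and 17 at P0 between tissues. They numbered 19 in each of these mesenchymal comparisons. The comparisons with P0 share the P0 cells, and stage and library cannot be told apart in either.

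The GTPases, Isg15 and Bst2 showed this in mesenchyme. Isg15 was 129.7-fold (22.9 to 5159) the E13.5 level and 130.3-fold (43.6 to 639.6) the E15.5 level. Gbp2 was at least 53.8-fold the E13.5 level and 17.4-fold (11.6 to 26.9) the E15.5 level. Bst2 was 15.7-fold (10.2 to 25.4) and 26.7-fold (19.2 to 38.2) the respective levels. Ifitm3 was 9.26-fold (7.92 to 10.9) and 4.50-fold (4.16 to 4.86) higher at P0. Against these, Ifit2 was at 0.640-fold (0.301 to 1.32) and 0.605-fold (0.314 to 1.09), and Ifitm2 at 0.852-fold (0.796 to 0.912) and 0.734-fold (0.694 to 0.776), so neither was higher at P0. The same P0 mesenchymal cells held more of the leukocyte list than any embryonic mesenchyme, 113 CPM against 2.07 to 3.58. Without the 11 P0 mesenchymal cells with 3 or more UMIs of the leukocyte or endothelial lists, Isg15 was at 55.9 CPM, Gbp2 at 70.7 and Iigp1 at 54.7. The erythroid list (globin genes and Alas2) was at 10383 CPM in P0 mesenchyme, with 3 or more UMIs in 6 cells, against at most 1.10 CPM in embryonic mesenchyme. Without these cells as well (256 cells left), Isg15 was at 29.2 CPM (22.7 to 37.0) and Rsad2 had 1 of its 18 UMIs left, while Gbp2 was at 71.7 CPM, Iigp1 at 52.8 and Bst2 at 151. Isg15 was then at 11 CPM in P0 epithelium.

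In epithelium the members split between the stages. Against E15.5, 7 of 26 (Irf7, Trim25, Ifi35, Ifi27, Xaf1, Ifitm1 and Bst2) were at least 2-fold higher at P0, where 1605 of all 11439 genes (14%) were. A further 10 (Ifit1, Rsad2, Oasl2, Rtp4, Ifitm3 and the 5 GTPases compared) were at least 2-fold lower, where 18.6% of all genes were. Several of the 10 reached the UMI minimum through E15.5 alone. Among them were Gbp3 (287 UMIs against 1 at P0), Igtp (210 against 2), Rsad2 (67 against 1) and Ifit1 (89 against 3). The E15.5 epithelium held 14293755 UMIs in all, against 2614403 at P0. The intervals of Irf7 (2.23-fold higher at P0, 0.997 to 4.64) and Rtp4 (2.65-fold lower, 0.671 to 22.9) included no difference. Gbp2 was 5.03-fold (3.65 to 7.11) higher at E15.5, Gbp3 52.5-fold (9.35 to 2081), Igtp 19.2-fold (5.25 to 159.6) and Irgm1 4.51-fold (2.48 to 9.13). Ifi27 was 16-fold (11.1 to 21.9) higher at P0, Trim25 10.5-fold (6.35 to 17.8) and Ifi35 9.76-fold (6.03 to 16.1). The cells of the E15.5 and P0 epithelium also differed in type: the suprabasal skin list was at 1253 CPM at E15.5 and 84.9 CPM at P0, and a luminal progenitor list (Aldh1a3, Kit, Csn3 and Wfdc18) at 14.1 and 6031 CPM, and their part in these ratios was not tested. Isg15 did not follow the GTPases, with a P0 level 1.12-fold (0.732 to 1.65) that of E15.5.

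Against E13.5, 6 of 14 members (Ifih1, Trim25, Isg15, Ifi35, Ifi27 and Bst2) were at least 2-fold higher in epithelium at P0, where 16.8% of all genes were, and Ifitm1 was lower, where 19.3% were. Ifi27 was 36.2-fold (12.1 to 178) the E13.5 level and Ifi35 13-fold (4.20 to 65.2). Each of the 6 higher members reached the UMI minimum through P0 alone, among them Isg15 (31 against 2 UMIs), Ifi35 (50 against 3) and Ifi27 (139 against 3). Gbp2, at 0.870-fold (0.537 to 1.41), had about the same level at E13.5 and P0. The cells of these 2 groups also differed in type, with the luminal progenitor list at 7.84 CPM at E13.5 and 6031 CPM at P0. A skin periderm list (Krt6a, Krt17 and Gabrp) differed less, at 854 and 582 CPM, as did the suprabasal skin list, at 98.5 and 84.9 CPM. Their part in these ratios was not tested.

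The genes upstream of these targets, 27 ligands, receptors, kinases, factors, inhibitors and sensors, gave the setting. Of the 9 ligand genes, Ifnk, an interferon of keratinocytes, had 27 UMIs in 8 epithelial cells at E15.5, 19 of them in 1 cell, and 2 in P0 epithelium. Ifnb1 had 2 UMIs and Ifna2 1 UMI in all kept cells, and the other ligands had 0. Ifnlr1, the subunit specific to the type III interferon receptor, was 10.6-fold (4.39 to 33.2) higher in epithelium at E15.5. The type I receptor subunit Ifnar2 was 2.31-fold (1.94 to 2.75) higher in mesenchyme at E15.5 and 3.03-fold (2.34 to 3.98) at P0. Of the genes of this list with enough UMIs, 1 of 12 was at least 2-fold higher in epithelium and 6 lower at E13.5, 1 of 10 and 4 at E14.5, 1 of 15 and 5 at E15.5, and 1 of 15 and 6 at P0. The shares over all genes were those given above, 9.58% and 20.2%, 13.6% and 16.1%, 16.4% and 21.7%, and 24.0% and 18.2% in that order.

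Single cells were then examined for a joint response, defined as at least 4 of 12 core genes (Isg15, Ifit1, Ifit2, Ifit3, Irf7, Oasl2, Mx1, Ifi44, Rsad2, Usp18, Rtp4 and Xaf1) with a UMI after each cell was thinned at random to 5000 UMIs, so that depth was equal. Such cells were rare. In P0 mesenchyme 6 of 273 cells met it (2.20%, 0.811 to 4.72), and in E15.5 epithelium 1 of 532 did (0.188%, 0.005 to 1.04). No cell met it in P0 epithelium (0 of 230 cells, which allows a share of up to 1.30%, the share that 3 cells would give) or in E15.5 mesenchyme (0 of 283, up to 1.06%). It was also not met in E13.5 epithelium (0 of 98, up to 3.06%), E13.5 mesenchyme (0 of 135, up to 2.22%), E14.5 epithelium (0 of 45, up to 6.67%) or E14.5 mesenchyme (0 of 31, up to 9.68%). At full depth the numbers were 11 cells in P0 mesenchyme (4.03%), 4 in E15.5 epithelium (0.752%), 2 in E15.5 mesenchyme (0.707%) and 1 in E14.5 epithelium (2.22%). The P0 share was 0.643% with cells kept from and thinned to 3000 UMIs and 0.733% with at least 5 core genes required, and the E15.5 epithelial share was 0% with 3000 UMIs. P0 mesenchyme had the lowest median depth of the 8 groups.

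**Figure D3:**
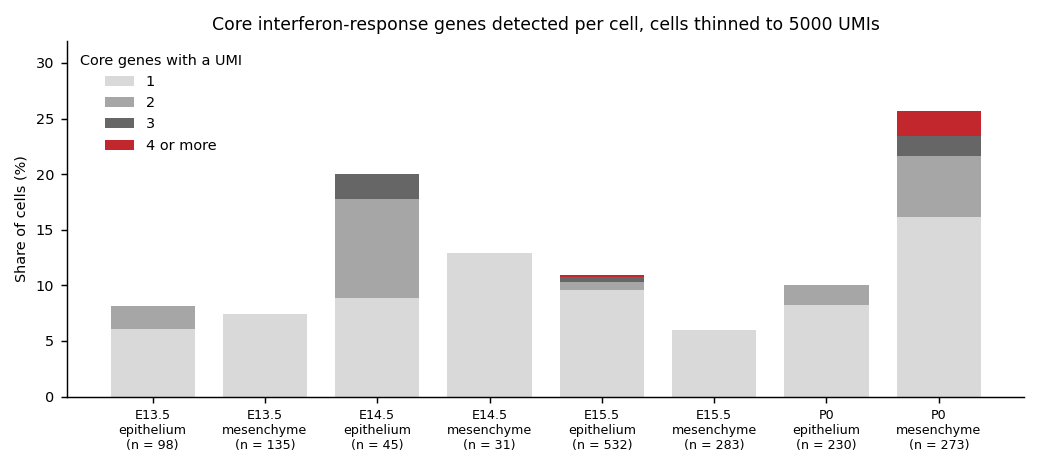
Share of cells (%) with 1, 2, 3 or at least 4 core interferon-response genes detected, by stage and tissue, with every cell thinned to 5000 UMIs. P0 mesenchyme has the tallest bar and 6 cells with at least 4 core genes (red), and E15.5 epithelium has 1.

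The 7 joint-response cells did not have UMIs of the same genes, though 0 UMIs at these depths does not show that a gene was silent. The E15.5 epithelial cell held 30 UMIs of Isg15, 17 of Ifit1, 10 of Rsad2 and 3 of Mx1, with 13 of Gbp2, 196 UMIs of the epithelial markers and 0 of the mesenchymal ones. At P0, cell 1 held 30 UMIs of Iigp1, 18 of Bst2, 7 of Isg15 and 0 of Ifit1, while cell 6 held 15 of Isg15, 11 of Bst2, 8 of Gbp2 and 5 of Ifit1. P0 cell 4 had 8 UMIs of Ifit1 and 0 of Isg15. Ifit3 was detected in all 7 cells, and Ifit2, Irf1 and Irf9 in none. The 6 P0 cells held between 42 and 961 UMIs of the mesenchymal markers, at most 4 of the epithelial ones, and 0 of the leukocyte and endothelial lists. Their depth was 6566 to 12458 UMIs with at most 1.72% mitochondrial UMIs, and the 32 genes listed at P0 together made up 2946 to 14253 CPM in them, against a group median of 1901.

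**Figure D4:**
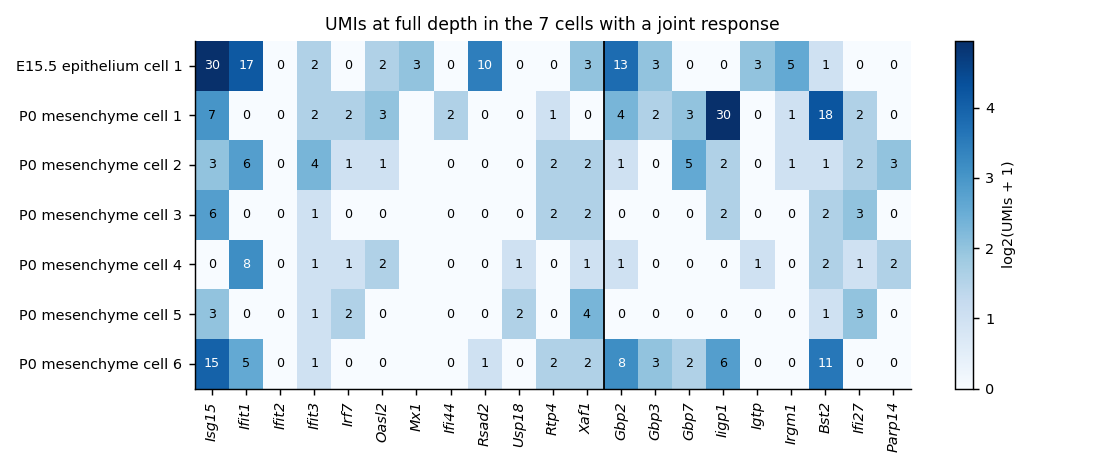
UMIs at full depth of 12 core genes (left of the line) and 9 further interferon-response genes (right) in the 7 cells with a joint response, shaded by log2(UMIs + 1). Blank cells mark Mx1, which was not listed at P0. Isg15 reaches 30 UMIs in the E15.5 cell, Iigp1 reaches 30 in P0 cell 1, and Ifit2 is at 0 in all 7.

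These 6 cells did not carry the P0 mesenchymal levels by themselves. They held 2.04% of all UMIs of P0 mesenchyme, 44.2% of those of Ifit1, 45.5% of Ifit3, 30.8% of Iigp1 and 25.2% of Isg15, but 8.33% of Gbp2, 8.33% of Gbp7, 7.35% of Gbp3 and 9.72% of Bst2. Without them Isg15 was at 41.1 CPM, Ifit1 at 9.77, Iigp1 at 36.6 and Gbp2 at 62.7, each above the P0 epithelial level of the gene. For Isg15 this level still includes the cells with blood or endothelial markers. The 6 joint-response cells held 34 of its 135 UMIs, and 68 remained without the blood and endothelial cells alone. None of these 6 cells was among the blood and endothelial cells left out, so their 34 UMIs are among the 68. The P0 mesenchymal level of Isg15 thus rested in large part on these 2 sets of cells. The level of Isg15 without both sets was not computed. The shares of the core genes are partly set by how the cells were chosen. Joint detection of the GTPases was counted by a rule of its own, whose shares cannot be set against those of the core genes. At least 3 of the 6 GTPases had a UMI in 10 of 273 thinned P0 mesenchymal cells (3.66%, 1.77 to 6.63), 8 of 532 E15.5 epithelial cells (1.5%, 0.651 to 2.94) and 2 of 45 E14.5 epithelial cells (4.44%, 0.543 to 15.1), and in 0 cells of the other groups. At full depth this held for 111 E15.5 epithelial cells (20.9%), 7 of 45 E14.5 epithelial cells (15.6%), 29 P0 mesenchymal cells (10.6%) and 1 E13.5 epithelial cell, and for 2 of 283 E15.5 mesenchymal cells (0.707%). The full-depth shares are not at equal depth, as P0 mesenchyme had a median of only 8743 UMIs. Joint detection of some pairs of genes was also counted, in thinned cells unless full depth is named. In P0 mesenchyme Isg15 was detected in 7 of 18 cells with an IFIT gene (38.9%, 17.3 to 64.3) and in 14 of 255 without (5.49%, 3.03 to 9.04). In E15.5 epithelium Gbp2 was detected in 27 of 79 cells with Igtp or Irgm1 (34.2%, 23.9 to 45.7) and in 92 of 453 without (20.3%, 16.7 to 24.3). For Isg15 the counts were 4 of 16 cells with it (25.0%, 7.27 to 52.4) and 115 of 516 without (22.3%, 18.8 to 26.1). At full depth Gbp2 was detected in 36 of 51 E15.5 epithelial cells with Isg15 (70.6%, 56.2 to 82.5). It was detected in 230 of 481 without (47.8%, 43.3 to 52.4), at median depths of 26067 and 24485 UMIs. In thinned P0 mesenchyme Gbp2 was detected in 8 of 21 cells with Isg15 (38.1%, 18.1 to 61.6) and 37 of 252 without (14.7%, 10.6 to 19.7). In P0 epithelium Gbp2 was detected in 0 of 11 cells with Isg15 (0 to 28.5%) and 9 of 219 without (4.11%, 1.90 to 7.66). It was detected in 0 of 6 cells with Igtp or Irgm1 (0 to 45.9%) and 9 of 224 without (4.02%, 1.85 to 7.49). These counts are too small to show whether the genes were detected together.

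Within the E15.5 epithelium, several members followed Cd74, the invariant chain of MHC class II, a split chosen after its values were seen. Cells with 2 or more Cd74 UMIs (187 cells, median 24850 UMIs) were set beside the remaining 345 (24485 UMIs). The interval of the ratio lay above 1 for 13 of the 21 members with enough UMIs (all genes 17.2%) and below 1 for none (all genes 14.3%). With cells thinned it lay above 1 for 9 members and 6.24% of all genes. The ratio reached 2 for 6 members, where 1.42% of all genes were at least 2-fold higher and 3.19% at least 2-fold lower. These were Oasl2 at 3.49-fold (2.22 to 5.58), Isg15 at 2.93 (2.08 to 4.15), Gbp3 at 2.67 (2.09 to 3.42), Ifit1 at 2.56 (1.64 to 4.04), Gbp2 at 2.11 (1.87 to 2.39) and Gbp7 at 2.01 (1.52 to 2.66). With cells thinned the interval of Oasl2 (0.619 to 7.75) included 1, and those of the others named here did not. Ddx58, Bst2 and Ifitm1 had ratios from 0.803 to 0.898 whose intervals included 1.

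**Figure D5:**
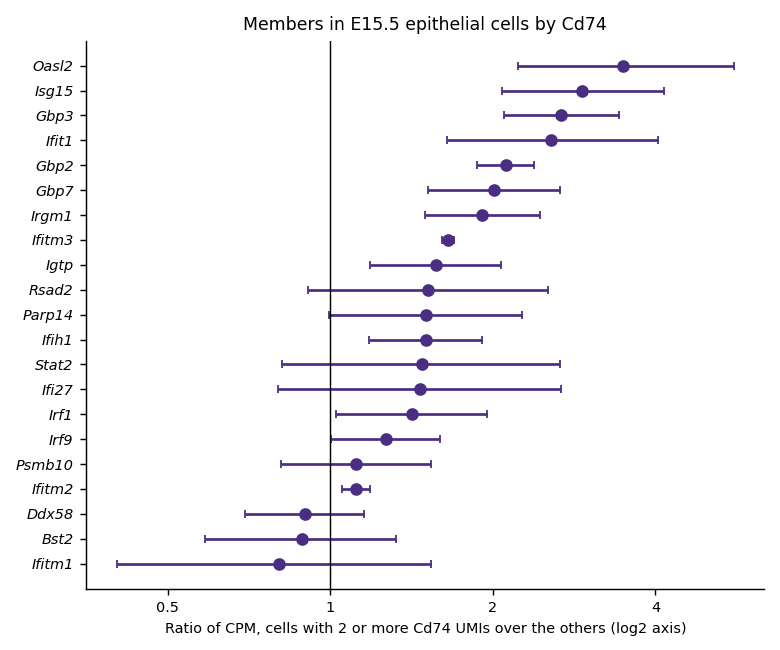
Ratio of CPM (log2 axis) of 21 interferon-response genes in E15.5 epithelial cells with 2 or more Cd74 UMIs over those with fewer, with exact 95% intervals. The vertical line marks equal levels. Oasl2, Isg15, Gbp3, Ifit1, Gbp2 and Gbp7 reach a ratio of 2, and 8 intervals include 1.

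A split by the suprabasal skin genes divided the members differently from the split by Cd74. The overlap of the 2 sets of cells was not counted. The 269 E15.5 epithelial cells with 5 or more suprabasal UMIs (median 28165 UMIs) were deeper than the other 263 (22040 UMIs). The interval of the ratio lay above 1 for 2 of the 21 members, Gbp2 (1.21-fold, 1.06 to 1.37) and Ifi27 (2.01-fold, 1.04 to 4.13), where it did for 13% of all genes. It lay below 1 for 9, among them Ifitm3 at 0.741-fold (0.723 to 0.761), where it did for 21.0% of all genes. With cells thinned, none lay above and 3 (Ifitm3, Gbp3 and Igtp) lay below (all genes 6.17% and 7.99%), and the ratio of Ifi27 was 0.489. By fold, 1 member was at least 2-fold higher and 1 (Rsad2) at least 2-fold lower, where 3.19% and 1.82% of all genes were.

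In P0 mesenchyme the members were divided by Pi16 and Dpp4, markers of the universal fibroblast, again a split chosen after the values were seen. In the 92 cells with 5 or more UMIs of the pair, the interval of the ratio to the other 181 cells lay below 1 for 9 of 21 members, where it did for 16.1% of all genes. It lay above 1 for Ifit1, at 2.55-fold (1.33 to 5.07), where it did for 13.8% of all genes. With cells thinned, 9 members lay below and none above (all genes 11.6% and 9.64%), and the interval of Ifit1 (0.961 to 5.73) then included 1. Ifitm1 had 2 UMIs in the 92 cells and 113 in the 181, 37.4-fold higher in the latter (10.1 to 312). Gbp2 was 3.31-fold (2.19 to 5.15) and Iigp1 3.43-fold (2.14 to 5.77) higher in the 181 cells. Isg15 was 4.04-fold (2.47 to 6.95) higher in them, but 1.63-fold (0.942 to 2.93) without the cells with erythroid, leukocyte or endothelial UMIs described above. With those left out and cells thinned, Isg15 in the Pi16 and Dpp4 cells was at 0.395-fold (0.135 to 0.965) the level of the others. Without the erythroid, leukocyte and endothelial cells, 8 of 20 members lay below 1 at full depth, and the share of all genes was not counted. Ifit1 then stayed higher in the Pi16 and Dpp4 cells, at 2.94-fold (1.48 to 6.09) and with cells thinned at 2.57-fold (1.04 to 6.55). Gbp7 and Gbp3 had intervals that included no difference at full depth. Without the blood and endothelial cells and with cells thinned, Gbp3 was at 0.407-fold (0.152 to 0.933) in the Pi16 and Dpp4 cells. By fold, 1 of the 21 members was at least 2-fold higher and 7 at least 2-fold lower in the 92 cells, where 4.61% and 6.59% of all genes were.

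Stress during dissociation was measured beside these results. A list of 9 immediate early and heat shock genes was at 2342 CPM in P0 epithelium and 5771 in P0 mesenchyme, and at 5250 and 6318 CPM at E15.5, so it was higher in mesenchyme at both stages. Of the 6 joint-response cells at P0, 3 lay above the mesenchymal median for this list (3155 CPM) and 3 below. Its part in the results was not tested.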

How the data were processed

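The deposited matrices hold UMI counts per gene and cell, 1 per stage, which the authors made with Cell Ranger against mm10. The submitters' processing notes name version 6.0.0, and the header of the E15.5 matrix names 3.1.0; that matrix also lists other genes, so genes were joined by Ensembl identifier (30406 shared). Counts were not normalised on deposit. Cells were kept from 5000 UMIs upward with a mitochondrial share of 6% or less. UMIs were summed by stage and tissue and given as CPM with exact 95% Poisson intervals, ratios with exact conditional binomial intervals, and shares of cells with exact binomial (Clopper-Pearson) intervals. All of these cover counting error only. Genes entered a comparison with at least 30 UMIs over both groups, and a call was a ratio past 2-fold. Groups with 0 UMIs were set to 3 UMIs per group, which gives a bound. No doublet caller was run; cells with at least 5 UMIs of both tissue marker sums were left out in an alternative. All 33 members are reported by role; 1 gene of the pathway list is not reported here. Members and lists were chosen with earlier results of these data known. The splits by Cd74, suprabasal and Pi16 with Dpp4 UMIs, the GTPase rule, a second thinning seed, levels without cells with erythroid UMIs and the core list without Mx1 were added after seeing the data. The labels do not give separate replicates. The steps were tested on simulated data. Python 3.11.15, numpy 2.4.6, scipy 1.17.1, pandas 2.3.3 and matplotlib 3.10.9 were used.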

Additional observations from a re-analysis of the deposited data

Results flagged for a closer look

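For 9 genes the ratio of epithelium over mesenchyme was past 2-fold in opposite directions at an embryonic stage and at P0. How many of all genes did so was not counted, so whether 9 is unusual cannot be said. With 1 library per stage the difference was not tested. The P0 log2 ratio is given first for each gene, and a group with 0 UMIs was set to 3. For Irf7 it was -1.12, and 2.19 at E15.5, a difference of 3.32. For Isg15 it was -2.18, with 3.54 at E14.5 (difference 5.72) and 4.69 at E15.5 (6.87). For Ifit1 it was -3.90, with 5.07 at E14.5 (8.97) and 3.91 at E15.5 (7.81). For Oasl2 it was -2.01, and 3.56 at E15.5 (5.57), and for Parp14 -1.40 and 1.68 (3.08). Among the GTPases, Gbp2 was at -2.17, with 3.78 at E13.5 (difference 5.95), 5.28 at E14.5 (difference 7.45) and 4.28 at E15.5 (difference 6.45). Gbp3 was at -6.15, on 1 epithelial UMI, with 2.72 at E14.5 (8.87) and 4.87 at E15.5 (11.01). Gbp7 was at -2.80 and 1.5 (4.30), and Irgm1 at -1.77 and 2.78 (4.55), both at E15.5. The P0 value of Isg15 includes the cells with blood or endothelial markers. Without those cells Isg15 was at 29.2 CPM in P0 mesenchyme and 11 CPM in P0 epithelium, so it stayed higher in mesenchyme, but by less. The E14.5 epithelial UMIs of Isg15 and Ifit1 came in large part from 1 cell for each gene, as given above.

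Barcodes outside the cell filter also held joint responses. At E15.5, 15 of 1826 such barcodes (0.821%, 0.460 to 1.35) had at least 4 core genes at full depth, and 12 of the 15 had 3 or more leukocyte UMIs. Of all 1826 barcodes, 245 had 3 or more leukocyte UMIs. The other stages had no barcode with a joint response outside the filter, in 746, 731 and 963 barcodes.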

How the results depend on the processing

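No paired analysis was possible because each stage has 1 library. Of the 1025 log2 ratios recomputed for single genes, 1017 kept their direction and side of 2-fold, 8 came within 2-fold and none reversed. The number of members past 2-fold moved mostly where fewer or more genes reached the UMI minimum. With cells thinned to 5000 UMIs it was 2 (as reported 7) between tissues at E13.5, 2 (7) for E14.5 and 12 (24) for E15.5, 1 (7) for epithelium at P0 against E13.5, 9 (17) for epithelium against E15.5 and 11 (19) for mesenchyme against E15.5. With a minimum of 100 UMIs it was 2 between tissues for E13.5, 3 for E14.5, 15 for E15.5 and 9 for P0, and 1 and 9 for epithelium at P0 against E13.5 and E15.5, and 9 and 10 for mesenchyme. With a minimum of 10 UMIs it was 12 for E13.5, 16 for E14.5 and 14 for epithelium at P0 against E13.5. Without cells that carried markers of both tissues, E13.5 had 5 members past 2-fold, 3 higher and 2 lower in epithelium, where 3 and 4 were reported, and epithelium at P0 against E13.5 had 4; the cause was not tested. The joint response in P0 mesenchyme was 0.643% of cells at a minimum and thinned depth of 3000 UMIs and 0.733% when 5 core genes were required, against 2.20% as reported, and in E15.5 epithelium it was 0% at 3000 UMIs. A second thinning seed gave 7 cells (2.56%) in P0 mesenchyme. The E14.5 groups, with 45 and 31 cells, and genes under 30 UMIs are the most limited by depth.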
